A study of Mus musculus with 6 samples.

Results

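The genes described here encode the core of the cytosolic HSP70 and HSP90 chaperone system: the transcription factor gene Hsf1, the HSP70 genes Hspa1a, Hspa1b and Hspa8, the HSP110 genes Hspa4 and Hsph1, the HSP90 genes Hsp90aa1 and Hsp90ab1, and the co-chaperone genes Stip1 and Chordc1. They were chosen by name, as all non-control probes whose gene name was one of these 10. Of the 10 names, 9 were carried by a probe, and these 9 genes had 14 of the 55681 probes of the array. All 14 probes were well above background on all 6 arrays, so each of the 9 genes entered the test, among 17931 gene features in all. Satellite cells are the resident stem cells of muscle. They had been sorted from C57BL6 mice, 3 in which Rpt3 was deleted specifically in satellite cells and 3 controls. Psmc4 encodes Rpt3, one of the ATPases that unfold substrates and feed them into the proteasome. The promoter that drove the deletion, the controls' alleles, and the age and treatment of the mice are not given in the sources used here. RNA of each mouse was amplified and hybridized to 1 Agilent array in 1 colour.

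HSP70 proteins bind exposed stretches of unfolded proteins and release them when bound ADP is replaced by ATP. HSP110 proteins speed up this step as nucleotide exchange factors. HSP90 takes over many of these clients at a later stage of folding, and STIP1, also called HOP, bridges both chaperones. HSF1 is held inactive by chaperones in unstressed cells. When misfolded proteins accumulate, as they do when the proteasome is blocked, it binds heat shock elements, which are runs of the triplet GAA in alternating orientation, and raises transcription of chaperone genes. In muscle this system also serves the folding of myosin and other contractile proteins.

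The probe sequences decide which gene a signal can be assigned to. No probe carried the gene name Hspa1b. The single probe named Hspa1a lies on chromosome 17 of build mm9, at chr17:35107117-35107176 on the minus strand, and the array's annotation ties it to 2 RefSeq transcripts, that of Hspa1a and that of Hspa1b. Its signal is therefore that of both stress-inducible HSP70 genes together. Among all pairs of probes of different genes in the group, the closest ungapped match of at least 20 bases was between this probe and a probe of Hspa8, the constitutive HSP70. The Hspa8 probe spans 296 bp at chr9:40612755-40613050 of mm9, on the plus strand, so that it crosses a splice junction. The 2 probes are shown 5′ to 3′, with capitals for the 15 of 23 overlapping bases that are the same in both.
Hspa1a and Hspa1b probe: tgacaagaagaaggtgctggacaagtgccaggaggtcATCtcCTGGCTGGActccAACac
Hspa8 probe: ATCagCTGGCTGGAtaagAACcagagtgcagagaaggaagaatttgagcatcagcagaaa
The shared stretch covers the end of one probe and the beginning of the other, and the Hsp90aa1 and Hsp90ab1 probes were the same at 39.0% of 41 overlapping bases.

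Promoters were searched for heat shock elements in RefSeq windows of GRCm38.p6 that reach from 250 bases before to 50 bases after a transcript start. Windows were found for 6 of the 10 genes, namely Chordc1, Hspa1a, Hspa1b, Hspa4, Hsph1 and Stip1. An element of 3 units was taken as GAANNTTC followed directly by NNGAA, or its reverse complement, TTCNNGAA followed directly by NNTTC, on either strand. It was present in 2 of the 6, Chordc1 and Hsph1, and in 0.662% of the 27025 genes in the table. The shorter form of 2 units, GAANNTTC or TTCNNGAA, which is also contained in the longer one, was present in 4 of the 6 and in 17% of all genes in the table. The windows shown hold the 3-unit matches, and the 2-unit matches of Hspa1a and Hspa1b. They run 5′ to 3′ along the gene, with the GAA and TTC units in capitals.
Chordc1, chr9:18292251-18292288, plus strand: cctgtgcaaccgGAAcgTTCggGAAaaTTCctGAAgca
Hsph1, chr5:149636284-149636310, minus strand: atgctgcagaTTCtgGAAagTTCtcct
Hspa1a, chr17:34972239-34972276, minus strand: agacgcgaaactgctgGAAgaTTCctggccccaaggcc
Hspa1b, chr17:34959321-34959358, minus strand: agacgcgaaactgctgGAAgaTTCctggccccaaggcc
Chordc1 had 5 units in a row across its transcript start. Hsph1 had 3 units downstream of its starts, and Hspa1a and Hspa1b had 2 units that began 104 bases upstream. Separate 2-unit matches, not shown, began 54 or 33 bases upstream in Hsph1, depending on the start, and at base 34 downstream in Chordc1. The promoter windows of Hspa1a and Hspa1b were the same at 296 of 300 bases. These are matches of letters only, and binding of HSF1 was not measured.

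The arrays differed in brightness, with a 75th percentile signal from 63.7 on the array of knockout 3 to 110.9 on that of knockout 1. The share of probes well above background was 44.2% on the array of knockout 3 and lay between 51.6% and 57.9% on the other 5. All 6 arrays lay on 1 slide, knockout 1 and 2 in slide row 1, and knockout 3 with the 3 controls in slide row 2, so that a comparison within a slide row rests on knockout 3 alone. Knockout 3 also stood apart on the first principal component, with a score of 70.2 against -23.8 to -4.39 for the others. Psmc4 was checked first. The arrays read 2.004, 2.02 and 1.52 for the knockouts, all lower than the 2.89, 2.58 and 2.84 of the controls (log2 difference -0.92, SE 0.24, limma, adjusted p = 0.415). The deleted exons are not given in the sources used here, so the probe may lie outside them. Of 12 satellite cell marker genes, 11 were tested, and Pax7, the transcription factor that defines these cells, was well above background on 5 of 6 arrays. Myf5, a muscle regulator of these cells, was so on 2 of 6.

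The comparison of knockout with control cells asked whether loss of Rpt3 was accompanied by higher mRNA of the cytosolic chaperones. None of the 9 measured genes passed the test. Log2 differences, knockout minus control, ranged from -0.17 for Hspa4 to 0.36 for Stip1, or from 0.889-fold to 1.29-fold. Over all 17931 features, limma called 0% higher and 0% lower at an adjusted p under 0.05, and 0 of the 9 genes passed in either direction. At an unadjusted p under 0.05, 0 of the 9 were called, beside 2.77% of all features called higher and 4.44% called lower, or 7.21% in either direction. Exact permutation p-values, which cannot go below 0.1 for 3 arrays against 3, lay between 0.2 and 0.9. In 0 of the 9 genes were the groups free of overlap, beside 4.86% of all features with all knockout samples higher, 5.94% with all lower, and thus 10.8%. Means were higher in knockout cells for 6 of the 9 genes, beside 54.8% of all features, and the median difference was 0.08, beside 0.04 over all features. Without knockout 2 the mean was higher for 3 of 9 genes, and with knockout 3 alone against the controls of its slide row for 4 of 9. In this fit the 95% intervals of all 9 differences lay between -0.85 and 0.97 on the log2 scale. They were thus inside a 2-fold change in either direction, as were those of 61.5% of all features. This bound depends on the fit and the probe. The SE of Hspa1a was 0.39 here and 0.49 without knockout 3. The interval of a second Hsph1 probe, in the fit over all probes, reached -1.03. In bulk RNA, a difference in the cells sorted and a difference in RNA per cell cannot be told apart.

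**Figure D1:**
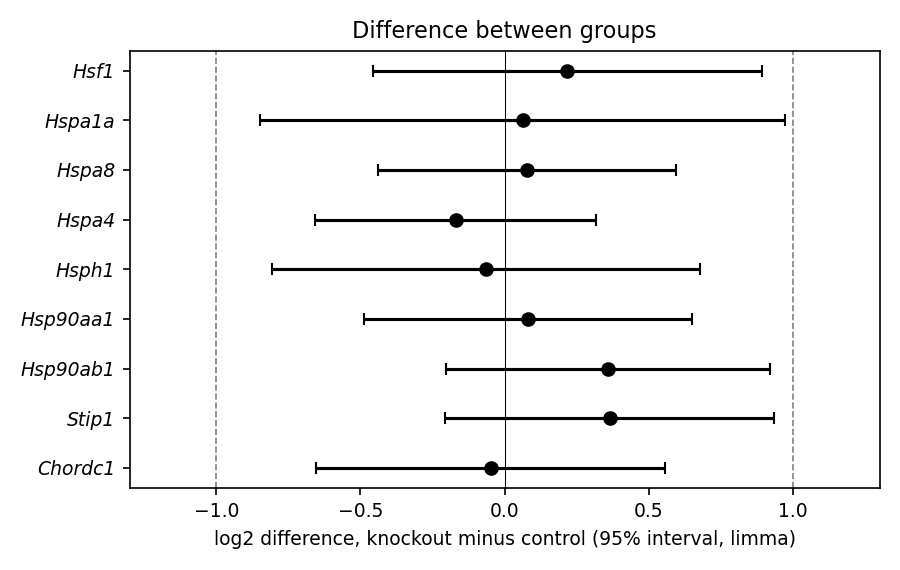
Log2 difference between knockout and control satellite cells for each of the 9 measured genes, with the 95% interval from limma (3 arrays against 3). Dashed lines mark a 2-fold change in each direction. Every interval of this fit holds 0 and lies inside the dashed lines, with the widest for Hspa1a, from -0.85 to 0.97.

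Hsf1, the master regulator of the heat shock response, read 0.56, 0.59 and 0.03 in knockout 1, 2 and 3, against 0.05, 0.64 and -0.17 in control 1, 2 and 3, as log2 signal relative to the 75th percentile of each array. The groups overlapped, and the highest and the lowest of the 6 values were both controls. Knockout cells had a mean of 0.39 ± 0.31 (SD, n = 3) and controls of 0.17 ± 0.42 (SD, n = 3), a difference of 0.22 (SE 0.29, limma, adjusted p = 0.985). Knockout 3 against the controls, all in slide row 2, gave -0.15. Activity of HSF1 depends on its trimerization and phosphorylation, which these arrays do not measure. Its relative Hsf2, which encodes a factor that can form trimers with HSF1, had a larger difference. The log2 signal of Hsf2 was 1.75, 1.63 and 1.70 in the knockout and 0.95, 0.84 and 0.68 in the control samples. Every knockout sample lay above every control, as in 4.86% of all features. The difference was 0.87 with a 95% interval from 0.40 to 1.34, but it did not pass over all features (limma, adjusted p = 0.349). In slide row 2 alone Hsf2 differed by 0.88 (limma, adjusted p = 0.352).

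The stress-inducible HSP70 genes Hspa1a and Hspa1b, read by 1 probe, were the most variable of the group among knockout mice. The probe read 2.74, 4.39 and 3.43 in knockout 1, 2 and 3, against 3.53, 3.42 and 3.42 in the controls. Knockout 1 was thus below all controls, knockout 2 above all of them, and knockout 3 among them. The signal in knockout 2 was 3.14-fold that in knockout 1. Because these deviations ran in opposite directions, the group means were close, at 3.52 ± 0.83 (SD, n = 3) and 3.46 ± 0.06 (SD, n = 3). The difference was 0.06 (SE 0.39, limma, adjusted p = 0.990), and it was -0.37 without knockout 2, 0.45 without knockout 1 and -0.03 in slide row 2 alone. The SD among knockout arrays lay at the 92.9th percentile of all features and the SD among control arrays at the 7.04th.

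Hspa8, which encodes HSC70, the abundant constitutive HSP70 that also serves protein import and chaperone-mediated autophagy, varied in the same order over a smaller range. Its log2 signal was 6.15, 6.67 and 6.44 in the knockout and 6.31, 6.40 and 6.32 in the control samples. Again knockout 1 was the lowest and knockout 2 the highest of the 6. The difference of means was 0.08 (SE 0.22, limma, adjusted p = 0.985) with a 95% interval from -0.44 to 0.59, and within slide row 2 it was 0.10. Hspa8 has 2 further probes, among them the one shown above, and their differences were 0.18 (SE 0.24) and 0.21 (SE 0.23), neither of which passed (limma over all probes, adjusted p = 0.980 and 0.969). All 3 probes had their highest value in knockout 2.

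The probes that stood for the HSP110 genes differed from each other in how they ordered the arrays. Hsph1, which encodes HSP105, a heat-inducible member of the family, had a log2 signal of 8.03, 9.22 and 8.69 in the knockout samples and of 8.52, 8.82 and 8.80 in the controls. As with the inducible HSP70 probe, knockout 1 was the lowest and knockout 2 the highest, and the latter was 2.28-fold the former. The difference of means was -0.07 (SE 0.32, limma, adjusted p = 0.988), and 0.24 without knockout 1. A second Hsph1 probe ordered the knockout arrays in the same way, at 3.28, 4.87 and 3.93 against 3.85, 4.37 and 4.17 in the controls, with a difference of -0.10 (SE 0.40). For Hspa4, which encodes APG-2, a constitutive HSP110, the probe that stood for the gene read 3.14, 3.35 and 3.40 in the knockout and 3.46, 3.34 and 3.61 in the control samples. The groups overlapped in a narrow range, and the difference was -0.17 (SE 0.21, limma, adjusted p = 0.985). The other probes of Hspa4 gave -0.03 (SE 0.26) and -0.33 (SE 0.27). Both of them were highest in knockout 2, whereas the main probe was highest in control 3, so the 3 probes of this gene did not order the arrays alike. Within slide row 2 the differences of Hsph1 and Hspa4 were -0.02 and -0.07.

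**Figure D2:**
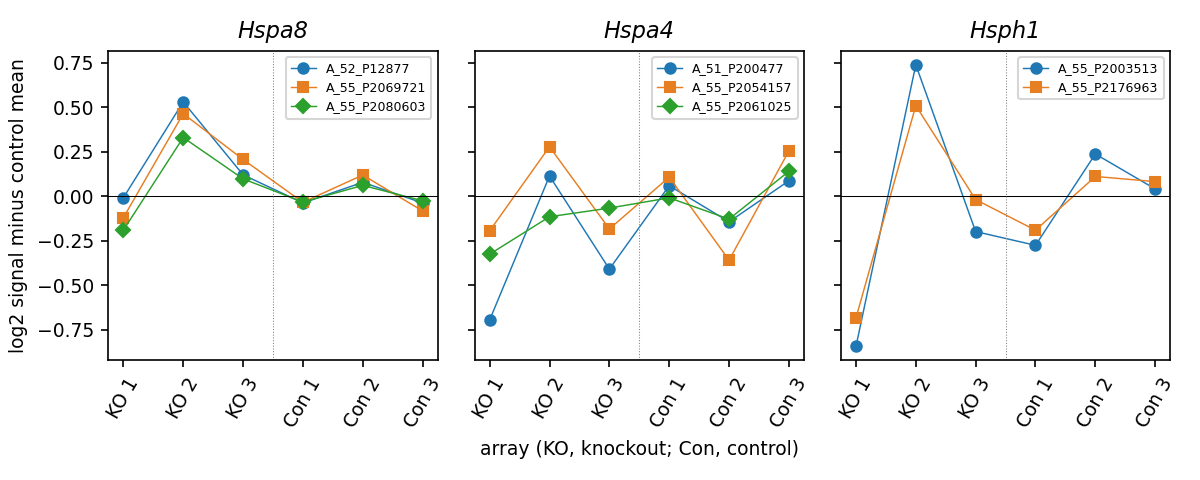
Log2 signal of every probe of the 3 genes with several probes, on each array, relative to that probe's mean over the 3 control arrays; each line joins the 6 arrays of 1 probe and has no meaning as a course. All probes of Hspa8 and Hsph1 are highest in knockout 2, while the probes of Hspa4 spread, with 2 of 3 highest in knockout 2.

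The HSP90 genes encode the stress-inducible alpha form and the constitutive beta form of the chaperone. Hsp90aa1 read 7.16, 7.85 and 7.59 in the knockout and 7.48, 7.53 and 7.35 in the control samples. Its knockout values enclosed the control values, with knockout 1 lowest and knockout 2 highest, and the difference was 0.08 (SE 0.25, limma, adjusted p = 0.985). Hsp90ab1 read 7.44, 8.09 and 7.62 in the knockout and 7.34, 7.47 and 7.25 in the control samples. Here knockout 2 and 3 lay above all controls and only knockout 1 among them, and the difference was 0.36 (SE 0.24, limma, adjusted p = 0.910; 95% interval -0.20 to 0.92). Without knockout 2 it was 0.17. Within slide row 2 the differences of the alpha and beta genes were 0.14 and 0.26.

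Inducible and constitutive paralogs were compared within each array. The log2 ratio of Hsp90aa1 to Hsp90ab1 probe signals was -0.28, -0.23 and -0.02 for the knockouts, set against 0.14, 0.06 and 0.10 for the controls. All 3 knockout ratios lay below all control ratios. The change of the ratio was -0.28, with an exact permutation p of 0.1, the smallest possible, and 0.2 after Benjamini-Hochberg adjustment over the 2 pairs, so it did not pass. The ratio of the inducible HSP70 probe to Hspa8 was -3.41, -2.28 and -3.01 in the knockout and -2.78, -2.98 and -2.90 in the control samples. Those ranges overlapped, and the change was -0.02 (exact permutation p = 0.9, adjusted 0.9). Only changes of these ratios can be read, since signals of different probes are no measure of relative abundance.

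The co-chaperones Stip1 and Chordc1 overlapped between groups as well. Stip1, whose product links HSP70 to HSP90, read 6.22, 6.67 and 6.01 in the knockout and 6.11, 5.84 and 5.87 in the control samples. Knockout 1 and 2 lay above every control, and knockout 3 did not. Its difference of 0.36 (SE 0.25, limma, adjusted p = 0.913) had the 95% interval -0.21 to 0.93. It was 0.18 without knockout 2 and 0.07 within slide row 2. Chordc1, which encodes the HSP90 partner morgana and carries the 5-unit element shown above, read 2.72, 3.18 and 2.37 in the knockout and 2.77, 2.69 and 2.96 in the control samples. Knockout 2 was the highest and knockout 3 the lowest of the 6. The difference was -0.05 (SE 0.26, limma, adjusted p = 0.988), and -0.43 in slide row 2 alone.

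**Figure D3:**
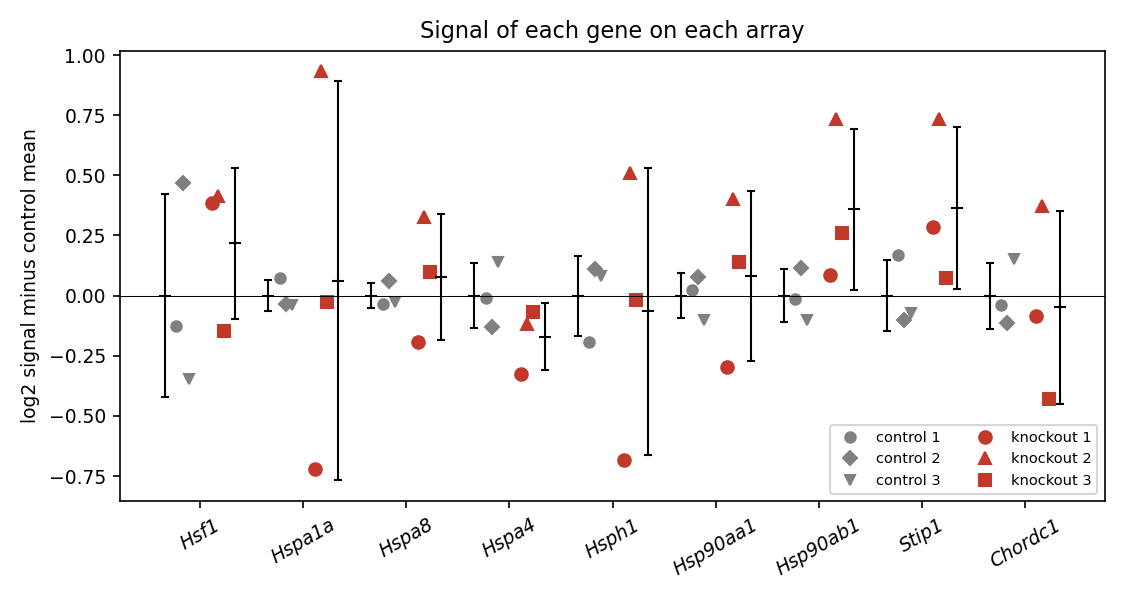
Log2 signal of each gene on each array, relative to the gene's mean over the 3 control arrays. Grey symbols are control and red symbols knockout samples, and the bars give mean ± SD of the 3 samples of each group. Knockout 2 is the highest of 6 in 7 of 9 genes, and for Hspa1a and Hsph1 knockout 1 and 2 lie on opposite sides of the controls.

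The spread of most of these genes differed between the groups. The SD was larger among the 3 knockout than among the 3 control arrays in 8 of 9 genes, all but Hsf1, beside 61.8% of all features, and for Hspa4 the SDs were nearly equal, at 0.138 and 0.134. The median SD of the 9 genes was 0.34 among knockout and 0.13 among control arrays, where all features had medians of 0.35 and 0.27. Beside these medians the controls of the 9 genes were narrow and the knockouts alike, but all features were not matched to the genes for brightness. Single genes differed. The knockout SDs of Hspa1a and Hsph1 lay at the 92.9th and 82.4th percentile of all features, and those of the others between the 10.6th and 59.7th. Knockout 2 was the highest of all 6 arrays in 7 of 9 genes, beside 14.2% of all features, and knockout 1 the lowest in 5 of 9, beside 19.6%. In 4 genes, Hspa1a, Hspa8, Hsph1 and Hsp90aa1, the 2 coincided, beside 1.63% of all features. Knockout 2 exceeded knockout 1 in 9 of 9 genes, beside 54% of all features, by a median of 0.52 on the log2 scale. These counts were chosen after the values were seen and carry no test. Brightness moved with them. Of the 9 genes, 5 belong to the 796 features with a mean log2 signal over 6, in which knockout 2 was the highest array in 26.9% and the knockout SD the larger in 85.2%, and its part in the pattern was not tested. Knockout 2 was the highest in 7 of 9 genes also with normexp background correction, with quantile normalization, in the deposited value table and without knockout 3. The larger knockout SD was found in 7 of 9 genes without knockout 1, beside 55.7% of all features, in 8 of 9 without knockout 2, beside 59.8%, and in 8 of 9 without knockout 3, beside 37.7%. Without knockout 2 the genes' median knockout SD was 0.244.

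The members did not follow this pattern equally. Over the 6 arrays, which share 1 slide and the 2 groups, Pearson's r of a gene with the mean of the other 8 was 0.93 for Hspa8, 0.91 for Hspa1a, 0.88 for Hsp90aa1, 0.83 for Hsp90ab1 and 0.79 for Hsph1. It was 0.62 for Stip1 and 0.56 for Chordc1. Hsf1, at 0.19, and the main probe of Hspa4, at 0.01, did not move with the rest. The other Hspa4 probes, both highest in knockout 2, did not enter these coefficients. Of the 36 pairs of genes, 33 had r above 0, with a median of 0.49 and the highest value, 0.98, between Hspa8 and Hsp90aa1. Hsf1 and Hspa4 had the lowest, at -0.80. With 6 points these coefficients are descriptions of the arrays.

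Of 15503 features well above background on all arrays, the 5 with the highest r to the mean of the 9 genes were Gm7298 (0.99), A730056A06Rik (0.97), a feature that the array names only by a region of chromosome 4 (0.97), Bag3 (0.97) and Elmod3 (0.97). With normexp background correction r was 0.67 for Gm7298, 0.85 for A730056A06Rik and 0.83 for Elmod3. Bag3 encodes a nucleotide exchange factor of HSP70 that hands clients to selective autophagy. Its log2 signal was 3.61, 4.16 and 3.71 in the knockout and 3.61, 3.68 and 3.66 in the control samples, so knockout 2 stood above 5 like values. The difference of means was 0.18 (SE 0.23, limma, adjusted p = 0.985).

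The wider chaperone network was read from lists of further genes. Of 22 other HSP90 co-chaperone genes, 19 were tested, 13 with higher and 6 with lower means, and 0 passed in either direction by limma, adjusted or unadjusted. Their median difference was 0.13. Those with the smallest p were Ptges3, which encodes p23, a stabilizer of the closed HSP90 dimer (0.37, SE 0.21), the immunophilin gene Fkbp4 (-0.47, SE 0.27), Cdc37l1, a relative of the kinase-specific CDC37 (-0.40, SE 0.24), and Ahsa1, which encodes the activator of HSP90's ATPase (0.49, SE 0.31). For Ptges3 and Ahsa1 every knockout sample lay above every control, as in 4.86% of all features. Both were picked for a small p, which favours groups without overlap. Ptges3 read 7.09, 7.22 and 6.95 against 6.74, 6.79 and 6.61, and Ahsa1 read 2.56, 3.56 and 2.64 against 2.49, 2.51 and 2.29. The values of Ptges3 are those of its brightest probe. The mean of its probes gave a difference of 0.26 (SE 0.22), and slide row 2 alone gave 0.23. The excess of Ahsa1 was largest in knockout 2 and the difference was 0.17 without that sample.

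Partners of HSP70 gave a similar picture. Of 10, 8 were tested, 7 with higher and 1 with lower means, with a median of 0.11, and 0 passed by limma, adjusted or unadjusted. Stub1, which encodes CHIP, the ubiquitin ligase that marks chaperone clients for the proteasome, was 0.40 higher in mean (SE 0.23). It read 1.96, 2.25 and 2.10 in the knockout and 1.39, 1.92 and 1.80 in the control samples, without overlap but with 1.96 close to 1.92. Stub1 was likewise picked for a small p. The HSP70-interacting protein gene St13 (0.20, SE 0.31) and the exchange factor gene Bag5 (0.10, SE 0.21) overlapped between groups.

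Among 9 tested HSP70 and HSP90 paralogs of other compartments or lineages, 5 means were higher and 4 lower, with a median of 0.03. Hspa12a, a distant HSP70 relative, had an unadjusted p under 0.05 and did not pass after adjustment (-0.68, SE 0.26, limma, adjusted p = 0.616). Its log2 signal was -0.95, -1.36 and -1.28 in the knockout and -0.59, -0.14 and -0.83 in the control samples. Hspa14, an HSP70 gene tied to the ribosome, had a difference of -0.78 (SE 0.41, above background on 5 of 6 arrays), Hspa1l of 0.49 (SE 0.30) and the mitochondrial HSP70 gene Hspa9 of 0.32 (SE 0.20). Hspa14 and Hspa1l leaned on knockout 3, with -0.34 and 0.19 without it, and -1.66 and 1.08 in slide row 2 alone. With normexp background correction the differences of Hspa12a, Hspa14 and Hspa1l were smaller, at -0.29, -0.21 and 0.25. Hspa9 read 5.46, 5.64 and 5.51 in the knockout and 5.30, 5.18 and 5.17 in the control samples, so the groups did not overlap. Hspa9 too was picked for a small p. Of 6 other genes of the HSF family and its regulators, 4 were tested. Besides Hsf2, these were Hsf4 (-0.18, SE 0.23), the HSF1-binding protein gene Hsbp1 (0.04, SE 0.22) and Hsfy2 (-0.04, SE 0.51), and 0 passed after adjustment.

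The small heat shock protein gene Hspb8, which was picked from these data for its difference and is given as a description, read 1.80, 2.33 and 2.04 in the knockout and -0.39, -0.51 and -2.16 in the control samples. Its BAG3-binding product works beside HSP70 in chaperone-assisted autophagy. The knockout and control values did not overlap.

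**Figure D4:**
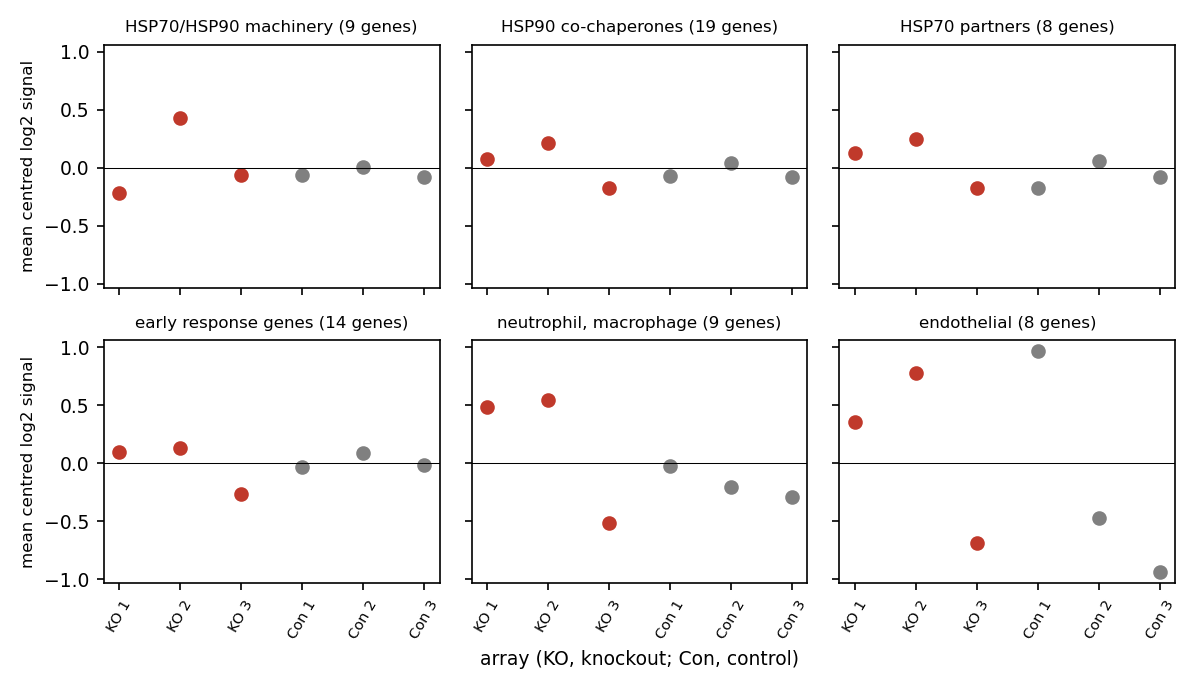
Mean log2 signal of 6 gene lists on each array, each gene centred on its mean over all 6 arrays; red points are knockout and grey points control samples. The chaperone genes peak in knockout 2, at 0.43. So do HSP90 co-chaperones (0.21), HSP70 partners (0.25), early response genes (0.13), and neutrophil and macrophage markers (0.55). Endothelial markers peak in control 1, at 0.97. Early response genes stay between -0.26 and 0.13 on all arrays.

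Immediate early genes, which are known to respond to the isolation of cells from tissue, were set beside the chaperones. All 14 listed early response genes were tested, 6 with higher and 8 with lower means (median -0.03), and 0 passed by limma, adjusted or unadjusted. Their centred mean was 0.09, 0.13 and -0.26 in knockout 1, 2 and 3, compared with values between -0.03 and 0.09 in the controls, while that of the 9 chaperone genes was -0.22, 0.43 and -0.06, and between -0.08 and 0.00 in the controls. These are list means, and single early genes differed from them. Egr1 read 9.38 in knockout 1, its lowest array, and 9.73 in knockout 2, whereas Socs3 read 5.46 and 5.03. The part of cell isolation in the chaperone values was not tested. Markers of other cells also differed between arrays. The 9 tested neutrophil and macrophage markers of 10 stood at 0.49 and 0.55 in knockout 1 and 2, and between -0.52 and -0.02 in the others. These means lean on S100a8, a neutrophil calcium-binding protein gene that read 1.72, 2.59 and -4.09 in the knockout samples and was above background on 5 of 6 arrays. The neutrophil receptor genes Itgam (9.38, 9.75 and 10.23) and Csf3r (9.12, 9.38 and 9.81) ran the other way, lowest of all arrays in knockout 1 and highest in knockout 3. These 3 genes were singled out after their values were seen. The 8 endothelial markers, all tested, stood at 0.78 in knockout 2 and 0.97 in control 1, and between -0.94 and 0.36 in the others. The 8 fibro-adipogenic progenitor markers lay between -0.36 and 0.30. Of 8 erythroid markers 2 were tested, at 0.27 to 0.76 in the knockout and -1.01 to 0.19 in the control samples. The α-globin gene Hba-a1 differed by 1.88 (SE 0.44, limma, adjusted p = 0.349), whereas the other, Slc4a1, had a difference of -0.01 and was highest in control 2. Ahsp was well above background on no array. Of 8 mature fibre genes 3 were tested, at 0.81 in knockout 2 and between -0.87 and 0.19 in the others, and Ckm and Myh2 were well above background on no array. The 11 satellite cell markers stood between -0.46 and -0.00 in the knockout and between -0.20 and 0.40 in the control samples. Of these, 3 were lower at an unadjusted p under 0.05 and 0 after adjustment (limma), namely the receptor genes Calcr (-1.04), Fgfr4 (-0.90) and Cxcr4 (-0.65). The part of these cells in the chaperone values was not tested.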

How the data were processed

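Linear intensity values of 1 array fill each scanner file. Per the file headers, the authors made them with Feature Extraction 10.7.1.1, while the submitters' processing notes name version 9.5.1.1. The deposited value table, also intensity, has equal quantiles in all columns. Per the labels' protocols, 5 ng of RNA were amplified.

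Signals were taken as log2 and centred on each array's 75th percentile, after control spots and outlier-flagged spots were removed. Named probes well above background throughout at least 1 group were tested (24735), and the brightest stood for its gene (17931 features). Symbols of 27235 probes were matched by transcript accession to RefSeq of GRCm38.p6. limma 3.58.1 in R 4.3.3 compared the groups, 2-sided, with Benjamini-Hochberg adjustment over all features. On simulated data of 17929 features with 200 changed genes and 3 arrays a group, 3.4% of 2-fold, 58.1% of 4-fold and 83.1% of 8-fold changes were recovered, and 4.39% of calls were false. The number of arrays limits the precision.

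The genes and lists were chosen with earlier results of these data known. The rule named the 10 genes, up to 4 genes with the smallest p of each chaperone or HSF list, the 5 features most like the genes' mean, Psmc4 and Hspb8. Marker genes it also takes are given as lists, with defining markers that were not above background. Alternatives were other background corrections, scalings, filters, probe rules and variance models, the deposited table, blocks for replicate number and slide row, and each array left out.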

Additional observations from a re-analysis of the deposited data

How the results depend on the processing

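None of the 9 genes passed the threshold under any of 20 alternatives, with adjusted p from 0.322 to 1. Features called over the whole array were 0 in each direction, but 1 lower with quantile normalization and with the deposited table, 2 lower with median scaling, 4 higher and 4 lower with an intensity trend and robust moderation, and 3 higher and 6 lower with array weights, which also turned Hsph1 to 0.15 and Chordc1 to 0.19 and, at an unadjusted p under 0.05, gave 0.58 for Stip1 and 0.53 for Hsp90ab1 (limma, adjusted p = 0.322 and 0.393). A block for slide row and slide row 2 alone, both resting on knockout 3, gave -0.15 for Hsf1, -0.027 for Hspa1a, -0.42 for St13 and -0.19 for Hsbp1, and in the row alone the lone array was assumed to vary like the controls. The change of the Hspa1a to Hspa8 ratio was 0.054 with quantile normalization and 0.033 in the deposited table. Hsfy2 was 0.038 with normexp. Hspb8 passed in 1 of the 20 alternatives, the intensity trend, at 3.08 (limma, adjusted p = 0.0476). In the main fit Hspb8 did not pass (limma, adjusted p = 0.169). Leaving out 1 array in turn gave 0.04 to 0.45 for Hsf1, 0.17 to 0.50 for Hsp90ab1, 0.18 to 0.51 for Stip1, -0.37 to 0.45 for Hspa1a, -0.047 to 0.21 for Hspa8, -0.35 to 0.24 for Hsph1, -0.078 to 0.27 for Hsp90aa1, -0.26 to 0.14 for Chordc1, -0.33 to 0.24 for the Hspa1a to Hspa8 ratio, -0.033 to 0.16 for Hsbp1 and -0.56 to 0.35 for Hsfy2. The cause of these changes was not tested. Correlations of same-numbered knockout and control samples were 0.07, -0.02 and 0.09, beside -0.09 to 0.04 for differently numbered ones. Values this small cannot decide whether the numbers pair the samples. With the replicate block 0 features passed in either direction, as without it, and Hspa1a differed by 0.06 (adjusted p = 0.990). The counts on spread among arrays, whose alternatives were chosen after seeing the data, lay between 7 and 9 for a larger knockout SD and between 7 and 8 for knockout 2 highest. Whether the mice were littermates is not given in the sources used here. The limma p-values set the difference between the groups against the spread within the groups of these 6 samples.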
